A study of Rattus norvegicus with 24 samples.

Results

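Endothelial cells line the blood vessels of the brain, and 9 genes of their identity and transport were followed here in the CA1 field of the rat hippocampus: the transporters Slco1c1 and Abcg2, the transcription factors Sox17 and Sox18, and the surface receptors and markers Pecam1, Flt1, Kdr, Tek and Ramp2. They were taken as every probe set whose platform annotation gives 1 of these symbols alone, which found 14 of the 31099 probe sets on the array and 9 of the 14218 genes with such a probe set. Of the 14 probe sets, 11 passed the limit set for dim probe sets (a signal above 4 on the log2 scale in 6 or more arrays), and all 9 genes kept at least 1.

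Total RNA came from microdissected CA1 of male Long-Evans rats that were housed singly and received no treatment. The young group was 6 months old (9 arrays). The aged rats were 24 to 26 months old and had been scored in the Morris water maze, a test of spatial learning, by a learning index. Of these, 6 arrays came from aged unimpaired rats, which performed within the young range, and 8 from aged impaired rats, which performed worse. The labels call every array a biological replicate, and their number limits the precision. One more aged unimpaired array, omitted by the submitters after quality control, had a blank column and was not used. The study compared the 3 groups with one another, so the questions here are how the endothelial genes differed with age and, among aged rats, with learning.

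The endothelium of the brain forms the blood-brain barrier: its cells are joined by tight junctions, and nutrients, hormones and drugs cross by carriers and pumps in the cell membrane. Pan-endothelial genes such as Pecam1, Flt1, Kdr and Tek are used in vessels of most organs, whereas Slco1c1 and Abcg2 are transporters for which brain vessels are known. Sox17 and Sox18 are related transcription factors of the SoxF group that act in vessel development and arterial identity, and Kdr and Tek are the main signalling receptors for VEGF-A and the angiopoietins.

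The arrays were of similar quality. The median log2 signal of an array lay between 4.2 and 4.28, and its correlation with the rest had a median between 0.9895 and 0.9936. Control probe sets at the 3 prime end exceeded those at the 5 prime end by 1.21 to 1.35 log2 units, a measure of RNA quality. This excess had a median of 1.23 in young, 1.305 in aged unimpaired and 1.26 in aged impaired arrays. Of 12 markers of CA1 and pyramidal neurons 11 were measured, and their mean signal lay between 11.44 and 11.82 in every array. The label of young replicate 9 stands in the deposited table among aged unimpaired arrays, and that array was kept as young, as labelled.

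Promoter sequences were at hand for 3 of the genes, Kdr, Abcg2 and Flt1, from RefSeq on the rat build GRCr8. Those of Kdr and Abcg2 are shown because, as described below, Kdr varied most closely with Slco1c1 across arrays and Abcg2 varied apart from the other genes. Each run of 300 bases starts 250 bases before the annotated start of the gene, and capitals mark the matches to 4 short motifs.
Kdr, chr14:32571813-32572112, plus strand: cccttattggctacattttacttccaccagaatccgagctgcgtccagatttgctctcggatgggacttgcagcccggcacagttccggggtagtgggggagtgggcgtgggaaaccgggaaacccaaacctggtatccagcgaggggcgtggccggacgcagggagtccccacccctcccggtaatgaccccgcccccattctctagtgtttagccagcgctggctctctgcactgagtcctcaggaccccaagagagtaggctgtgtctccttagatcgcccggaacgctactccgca
Abcg2, chr4:89075224-89075523, plus strand: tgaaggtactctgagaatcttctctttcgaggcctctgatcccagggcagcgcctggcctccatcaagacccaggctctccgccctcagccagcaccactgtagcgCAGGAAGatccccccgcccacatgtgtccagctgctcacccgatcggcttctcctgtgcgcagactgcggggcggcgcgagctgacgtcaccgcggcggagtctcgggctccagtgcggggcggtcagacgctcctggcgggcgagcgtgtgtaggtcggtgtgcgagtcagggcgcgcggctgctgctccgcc
The motifs searched on both strands were CCGGAAG and CAGGAAG, of the ETS factors that act in endothelium, and AACAAT and ACAAAG, of the SOX factors, and none overlaps another. They were found in 8.7%, 12.5%, 11.7% and 18.8% of 33469 promoters of this length, and 43.1% held at least 1. The match shown is CAGGAAG on the plus strand of Abcg2, at position -144 from the start. These letters were not found in the windows of Kdr and Flt1. A match is a description of the sequence, not a binding site.

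The first comparison asked how the genes differed between aged and young CA1. Of the 9 genes, Slco1c1, Sox17, Sox18 and Ramp2 were lower in aged rats, by 1.23-fold to 1.34-fold, and none was higher. The other 5, Kdr, Tek, Flt1, Pecam1 and Abcg2, did not pass. Calls were made at an adjusted p under 0.05 (limma, Benjamini-Hochberg over 9076 genes): 4 of 9 were called lower, where 0.628% of all genes were called lower, 3.09% higher and 3.71% in either direction. The median log2 difference was -0.303 over the 9 genes and 0.0112 over all genes, and 7 of the 9 differences were negative, against 43.9% of all genes. At an unadjusted p under 0.05, 5 of the 9 were lower, where 4.74% of all genes were lower and 15.3% differed in either direction. The 9 genes were chosen with earlier results of these data known. The shares over all genes, here and below, therefore describe the 9 and do not test them as a set. In none of the 9 did every aged array lie below every young one, a pattern seen in 0.011% of all genes (above, 0.165%). RNA of a whole tissue was measured, so fewer endothelial cells and less RNA per cell cannot be told apart.

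Slco1c1 encodes a carrier of thyroid hormone that is known from the endothelium of brain vessels and from astrocytes. Its log2 signal in young rats was 10.15 at the lowest, 10.59 at the median and 10.84 at the highest. It was 10, 10.23 and 10.36 in aged unimpaired rats, and 9.79, 10.14 and 10.39 in aged impaired rats. The young arrays were the high ones: 7 of 9 lay above every aged array, and of the aged arrays 6 of 14 lay below every young one and all 14 below the young median. The group means were 10.56 ± 0.24 (SD, n = 9) in young, 10.19 ± 0.14 (SD, n = 6) in unimpaired and 10.11 ± 0.19 (SD, n = 8) in impaired rats. Aged rats differed from young ones by -0.41 ± 0.083 (SE) log2 units, with a 95% confidence interval of -0.58 to -0.24 (limma, Benjamini-Hochberg adjusted p = 0.00503). This is 1.33-fold lower in aged CA1. The call held when each array was left out in turn, with adjusted p from 0.00103 to 0.0121 (limma, Benjamini-Hochberg). It also held under the 11 other alternatives tried, where adjusted p reached 0.0468 (limma, Benjamini-Hochberg). Of these, the looser threshold of 0.1 could not end a call.

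Sox17 gave a difference of like size. Its signal was 7.27, 7.76 and 8.16 (lowest, median, highest) in young, 6.87, 7.18 and 7.48 in unimpaired and 7.31, 7.42 and 7.66 in impaired rats. All 14 aged arrays lay below the young median, 6 of 9 young arrays lay above every aged array, and the 3 aged arrays below every young one were all unimpaired. The aged minus young difference was -0.40 ± 0.09 (SE; interval -0.58 to -0.21), 1.32-fold lower in aged CA1 (limma, Benjamini-Hochberg adjusted p = 0.0128). This call also held in every leave-out, with adjusted p from 0.00225 to 0.028 (limma, Benjamini-Hochberg). Under the 11 other alternatives it held too, with adjusted p up to 0.0475 (limma, Benjamini-Hochberg).

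Sox18, a close relative of Sox17, was measured at 6.14, 6.58 and 6.85 in young, 5.49, 6 and 6.54 in unimpaired and 5.79, 6.26 and 6.63 in impaired rats. The groups overlapped: 6 of 14 aged arrays lay below every young array and 3 young arrays lay above every aged one. The difference was -0.42 ± 0.118 (SE; interval -0.66 to -0.18), 1.34-fold lower (limma, Benjamini-Hochberg adjusted p = 0.047). Ramp2, which pairs with the calcitonin receptor-like receptor to form the receptor for adrenomedullin, was measured at 8.01, 8.49 and 8.66 in young, 7.79, 8.03 and 8.20 in unimpaired and 7.79, 8.29 and 8.52 in impaired rats. Again 6 aged arrays lay below every young array, and 2 young arrays lay above every aged one. The difference was -0.30 ± 0.085 (SE; interval -0.48 to -0.13), 1.23-fold lower (limma, Benjamini-Hochberg adjusted p = 0.047).

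The calls of Sox18 and Ramp2 lay close to the threshold and did not hold in many alternatives. In the fit over 16201 probe sets rather than genes, their adjusted p was 0.0655 and 0.0658 (limma, Benjamini-Hochberg), where 2.31% of probe sets were called and 0.42% were called lower. Leaving out 1 array in turn ended the call of Sox18 in 18 of 23 cases, with adjusted p from 0.0247 to 0.0969, and that of Ramp2 in 16 of 23, with adjusted p from 0.013 to 0.0937 (limma, Benjamini-Hochberg). Both calls were lost together, leaving 2 of the 9 genes called, without aged impaired replicate 3 or 6, without aged unimpaired replicate 1, 3, 4 or 7, and without young replicate 1, 2, 3, 4, 6, 8 or 9. The differences kept their sign throughout, from -0.471 to -0.369 for Sox18 and from -0.355 to -0.274 for Ramp2.

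**Figure D1:**
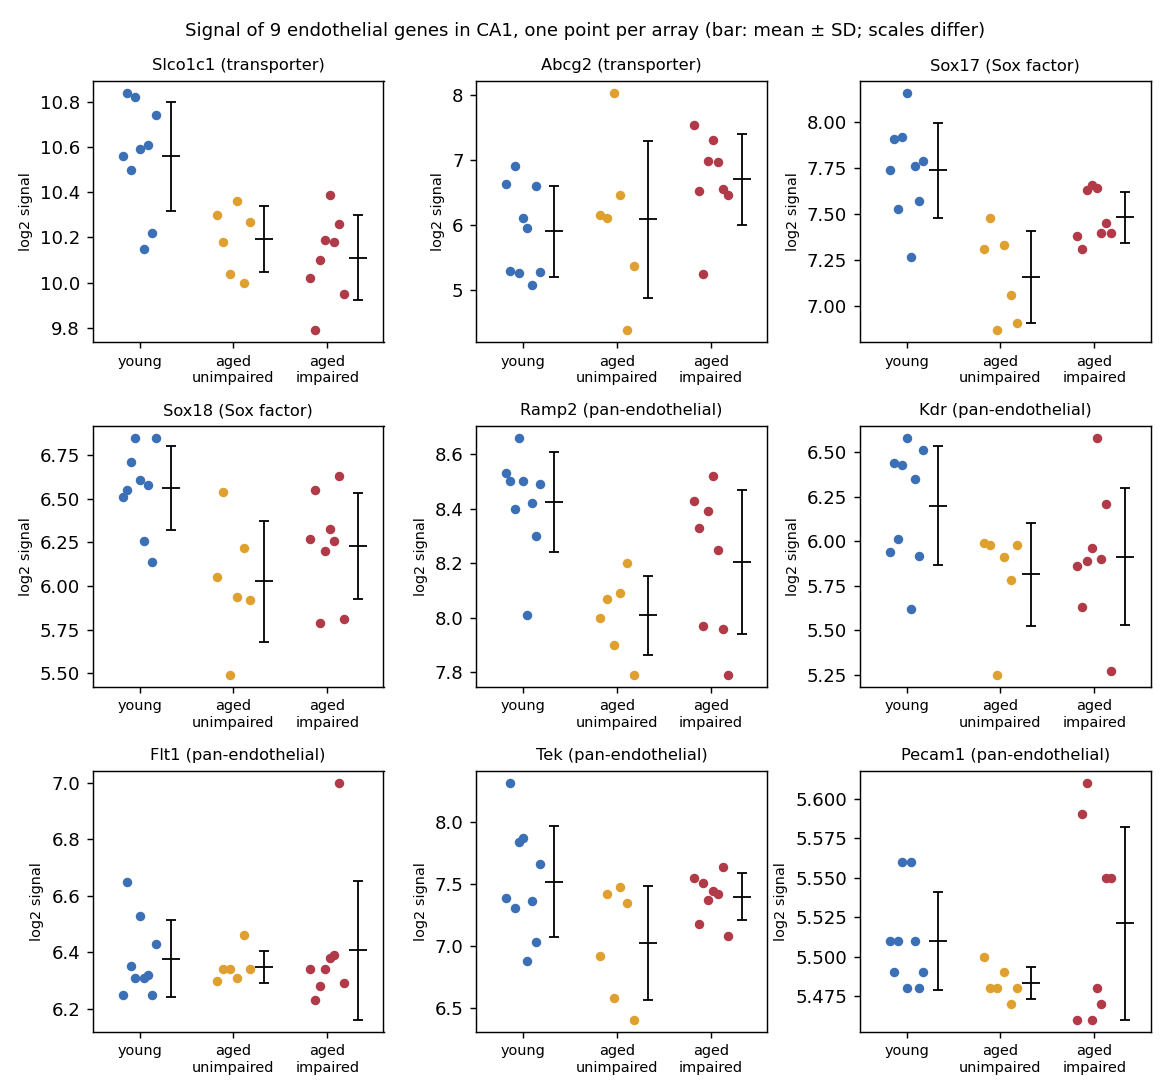
Log2 signal of the 9 genes in CA1, 1 panel a gene, with 1 point per array for young (9), aged unimpaired (6) and aged impaired (8) rats and a bar for the mean ± SD; the vertical scales differ. In Slco1c1, Sox17, Sox18 and Ramp2 the aged arrays lie lower, while the Pecam1 arrays span 0.15 log2 units and the Abcg2 arrays 3.66.

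Among the pan-endothelial receptors, Kdr, the main receptor for VEGF-A, was measured at 5.62, 6.35 and 6.58 in young, 5.25, 5.94 and 5.99 in unimpaired and 5.27, 5.89 and 6.58 in impaired rats. Of the 14 aged arrays 13 lay below the young median, but only 2 lay below every young array. Its aged minus young difference, -0.33 ± 0.137 (SE; interval -0.61 to -0.05), had an unadjusted p of 0.0247 and did not pass (limma, Benjamini-Hochberg adjusted p = 0.231). Tek, which encodes Tie2, the receptor of the angiopoietins, was measured at 6.88, 7.39 and 8.32 in young, 6.40, 7.14 and 7.48 in unimpaired and 7.08, 7.43 and 7.64 in impaired rats. Here 4 young arrays lay above every aged array, yet the aged arrays fell on both sides of the young median, with 7 of 14 below it. The difference was -0.28 ± 0.154 (SE; interval -0.60 to 0.04; limma, Benjamini-Hochberg adjusted p = 0.413), and -0.177 without young replicate 1. Both intervals include values as negative as those of the 4 called genes.

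Flt1 encodes VEGFR1, which binds VEGF-A and limits its action on Kdr. At its brightest probe set it was measured at 6.25, 6.32 and 6.65 in young, 6.30, 6.34 and 6.46 in unimpaired and 6.23, 6.34 and 7 in impaired rats. The 3 groups lay on top of one another, and the difference of 0.00 ± 0.071 (SE) had an interval of -0.14 to 0.15 (limma, Benjamini-Hochberg adjusted p = 0.987). Pecam1, the adhesion molecule CD31 and the usual stain for endothelium, was measured at 5.48, 5.51 and 5.56 in young, 5.47, 5.48 and 5.50 in unimpaired and 5.46, 5.51 and 5.61 in impaired rats. All 23 arrays lay within 0.15 log2 units. The within-group SD of 0.0411 was at percentile 0.704 among the probe sets tested, so very few probe sets varied as little. The difference of 0.00 ± 0.025 (SE) had an interval of -0.06 to 0.05 (limma, Benjamini-Hochberg adjusted p = 0.954). Pecam1 had 1 probe set, whose Pearson r with the mean of 19 other pan-endothelial markers, described below, was 0.02. Whether this probe set follows the amount of Pecam1 RNA was not tested, so the narrow interval describes the probe set.

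Abcg2, the efflux pump known as breast cancer resistance protein, which expels drugs from brain endothelium, lay at the other extreme. It was measured at 5.08, 5.96 and 6.91 in young, 4.38, 6.14 and 8.04 in unimpaired and 5.25, 6.77 and 7.55 in impaired rats. Its highest and its lowest array, replicates 3 and 5, both belonged to the unimpaired group, 5 of 14 aged arrays lay above every young array and 1 lay below. The within-group SD of 0.863 was at percentile 99.7, against percentiles of 71.1 for Slco1c1, 76.6 for Sox17, 72.9 for Ramp2, 88.6 for Sox18, 92.8 for Kdr and 95.2 for Tek. The difference of 0.54 ± 0.343 (SE) had an interval of -0.17 to 1.24 and did not pass the test (limma, Benjamini-Hochberg adjusted p = 0.501). The sign of Abcg2 was thus opposite to that of its fellow transporter Slco1c1, though its interval includes 0. Abcg2 had 1 probe set, whose Pearson r with the mean of the 19 other pan-endothelial markers was -0.25. Whether this probe set follows the amount of Abcg2 RNA was not tested.

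The second comparison set each aged group against the same 9 young arrays, so the results share their controls and are given side by side. In impaired rats 1 of 9 genes was called lower, Slco1c1, where 0.716% of all genes were called lower and 3.8% in either direction. In unimpaired rats 1 of 9 was called lower, Sox17, where 0.143% were called lower and 0.76% in either direction. The median difference over the 9 genes was -0.218 in impaired and -0.385 in unimpaired rats, against 0.00793 and 0.0151 over all genes. At an unadjusted p under 0.05, 4 of 9 were lower in impaired and 6 of 9 in unimpaired rats, where 5.98% and 3.04% of all genes were lower and 16.5% and 9.84% differed in either direction.

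For Slco1c1 the order of the means was young, unimpaired, impaired. Impaired rats were lower than young by a log2 difference of -0.45 ± 0.094 (SE; interval -0.64 to -0.25), 1.36-fold (limma, Benjamini-Hochberg adjusted p = 0.00735). For unimpaired rats the difference of -0.37 ± 0.102 (SE; interval -0.58 to -0.16) did not pass (limma, Benjamini-Hochberg adjusted p = 0.101). The neighbours unimpaired and impaired did not differ beyond their spread, at -0.08 ± 0.105 (SE; interval -0.30 to 0.14; limma, Benjamini-Hochberg adjusted p = 0.919).

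For Sox17 the order was young at 7.74 ± 0.26 (SD, n = 9), impaired at 7.48 ± 0.14 (SD, n = 8) and unimpaired at 7.16 ± 0.25 (SD, n = 6). Unimpaired rats were 1.49-fold lower than young, by a log2 difference of -0.58 ± 0.111 (SE; interval -0.81 to -0.35; limma, Benjamini-Hochberg adjusted p = 0.0103). In impaired rats the difference was -0.26 ± 0.103 (SE; interval -0.47 to -0.05) and did not pass (limma, Benjamini-Hochberg adjusted p = 0.194).

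Sox18, Ramp2, Kdr and Tek shared that order of means with Sox17. Sox18 stood at 6.56 ± 0.24, 6.23 ± 0.30 and 6.03 ± 0.35 (SD) in young, impaired and unimpaired rats, and Ramp2 at 8.42 ± 0.19, 8.21 ± 0.27 and 8.01 ± 0.14. Against young, the difference of unimpaired rats was -0.53 ± 0.145 (SE) for Sox18 and -0.42 ± 0.105 for Ramp2, and neither passed (limma, Benjamini-Hochberg adjusted p = 0.09 and 0.0598). That of impaired rats was -0.33 ± 0.134 for Sox18 and -0.22 ± 0.097 for Ramp2 (limma, Benjamini-Hochberg adjusted p = 0.199 and 0.254). Kdr stood at 6.2 ± 0.33, 5.91 ± 0.39 and 5.81 ± 0.29, and Tek at 7.52 ± 0.45, 7.40 ± 0.19 and 7.03 ± 0.46. None of their neighbouring means differed beyond the spread. Against young, the difference of unimpaired rats was -0.39 ± 0.169 (SE) for Kdr and -0.49 ± 0.189 for Tek (limma, Benjamini-Hochberg adjusted p = 0.43 and 0.332), and that of impaired rats -0.29 ± 0.156 and -0.12 ± 0.175 (adjusted p = 0.368 and 0.813). The impaired minus young difference of Tek ran from -0.198 to -0.017 when 1 array was left out, lowest in size without young replicate 1.

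Abcg2 ran the other way, with 5.90 ± 0.71 (SD) in young, 6.09 ± 1.2 in unimpaired and 6.70 ± 0.71 in impaired rats. The impaired minus young difference of 0.80 ± 0.39 (SE; interval -0.01 to 1.60) had an unadjusted p of 0.0521 (limma, Benjamini-Hochberg adjusted p = 0.308). The unimpaired minus young difference of 0.18 ± 0.423 (limma, Benjamini-Hochberg adjusted p = 0.951) ran from -0.205 without aged unimpaired replicate 3 to 0.527 without aged unimpaired replicate 5. For Pecam1, and for Flt1 at its brightest probe set, every group difference was within 0.06 log2 units. At the other passing probe sets of Flt1, described below, differences were larger but not called. At 1369087_at unimpaired minus young was -0.33 ± 0.299 (SE; limma over probe sets, Benjamini-Hochberg adjusted p = 0.824). At 1370492_a_at impaired minus young was -0.22 ± 0.136 (limma over probe sets, Benjamini-Hochberg adjusted p = 0.485).

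The number called in unimpaired rats depended on the setting. It was 4 of 9 (Slco1c1, Sox17, Sox18 and Ramp2) when arrays were centred on their medians, 4 with weights for array quality and 4 without the 3 arrays that correlated least with the rest. Without 1 array it ranged from 1 to 3: Ramp2 joined without aged impaired replicate 8, Sox18 without aged unimpaired replicate 2, and Slco1c1 and Ramp2 without young replicate 5. Other settings that changed the count, among them 1 that lowered it to 0, are given in the closing section. In impaired rats a covariate for that measure of RNA quality added Sox18 (limma, Benjamini-Hochberg adjusted p = 0.0375), which gave 2 of 9.

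**Figure D2:**
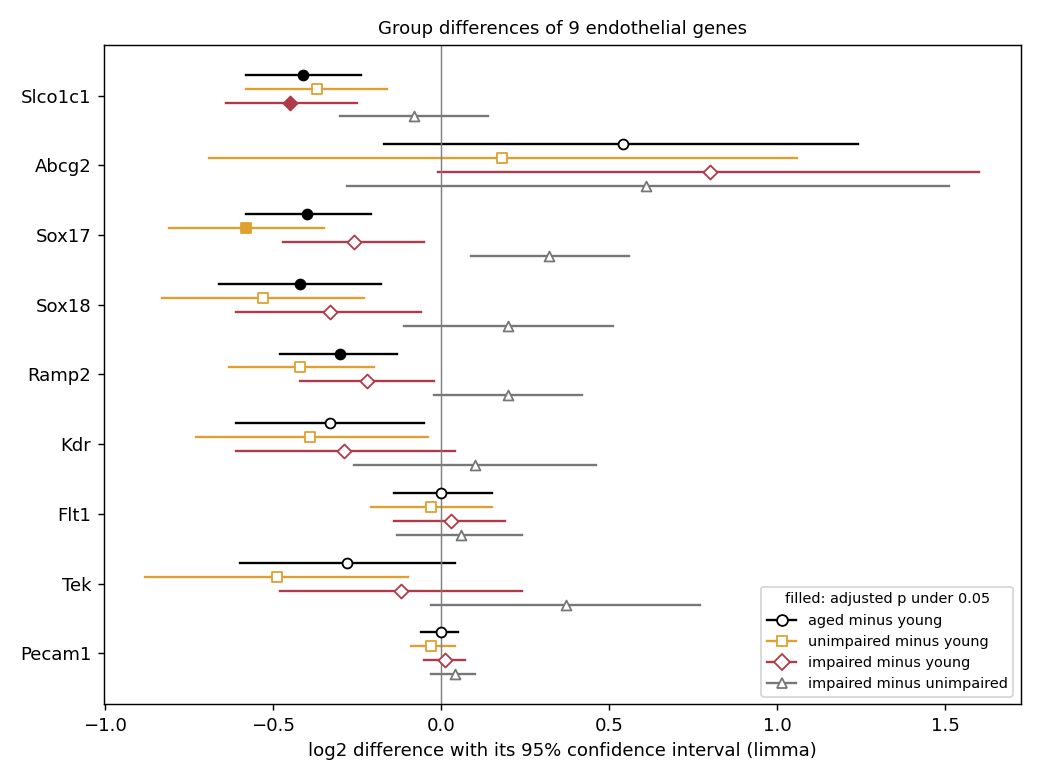
Log2 difference with its 95% confidence interval (limma) for the 9 genes, for the aged rats together and for the unimpaired and impaired groups against young rats, and for impaired minus unimpaired rats; filled points have an adjusted p under 0.05. The differences of Slco1c1 lie close together in the 3 comparisons with young, whereas those of Sox17 run from -0.26 in impaired to -0.58 in unimpaired rats.

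The third comparison, impaired minus unimpaired, asked what went with learning among aged rats. None of the 9 genes was called by limma with Benjamini-Hochberg adjustment, and none of the 9076 tested was (0%). An unadjusted p under 0.05 (limma) was seen in 629 genes, 6.93% of those tested. Of the 9, only Sox17 had an unadjusted p under 0.05. It was 0.32 ± 0.114 (SE) log2 units higher in impaired rats, with an interval of 0.09 to 0.56 (limma, Benjamini-Hochberg adjusted p = 0.599). In 8 of the 9 genes the difference was positive, with a median of 0.198 against -0.00518 over all genes, and Slco1c1 was the exception. Over all genes 52.6% of the differences were negative. The 9 genes were read on the same arrays and varied together in part, so their signs are not separate results. The difference was 0.20 ± 0.149 (SE) for Sox18, 0.20 ± 0.108 for Ramp2 and 0.37 ± 0.194 for Tek, with intervals of -0.11 to 0.51, -0.02 to 0.42 and -0.03 to 0.77. It was 0.10 ± 0.173 for Kdr and 0.61 ± 0.433 for Abcg2, whose intervals of -0.26 to 0.46 and -0.28 to 1.51 are wide. These values moved with single unimpaired arrays: Abcg2 to 1.004 without replicate 3 and 0.271 without replicate 5, Sox18 to 0.093 without replicate 3 and 0.302 without replicate 2, and Tek to 0.247 without replicate 7. Kdr ran from -0.014 to 0.191 over the leave-outs, lowest without aged unimpaired replicate 3 and highest without aged impaired replicate 8.

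Of the 9 genes, 3 had more than 1 probe set. Sox17 was called on 1392990_at. Its other probe sets, 1390041_at and 1378935_at, had signals of 2.23 to 2.34 and 2.10 to 2.17 in all arrays, below the limit of 4, and gave no usable value. The second probe set of Kdr, 1397868_at, lay at 2.40 to 2.53 and gave none either. For Flt1 all 3 probe sets passed. The second, 1369087_at, was measured at 3.56, 5.09 and 5.84 in young, 3.36, 4.56 and 5.44 in unimpaired and 4.56, 4.83 and 5.44 in impaired rats. The third, 1370492_a_at, was over 4 in 11 of 23 arrays, with 3.84, 4 and 5.23 in young, 3.80, 3.95 and 4.25 in unimpaired and 3.79, 3.91 and 4.17 in impaired rats. Neither differed between aged and young, at -0.18 ± 0.243 (SE) and -0.19 ± 0.12 (limma over probe sets, Benjamini-Hochberg adjusted p = 0.815 and 0.524). The sign of Flt1 therefore depended on its probe set, and its mean over the 3 differed by -0.12.

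**Figure D3:**
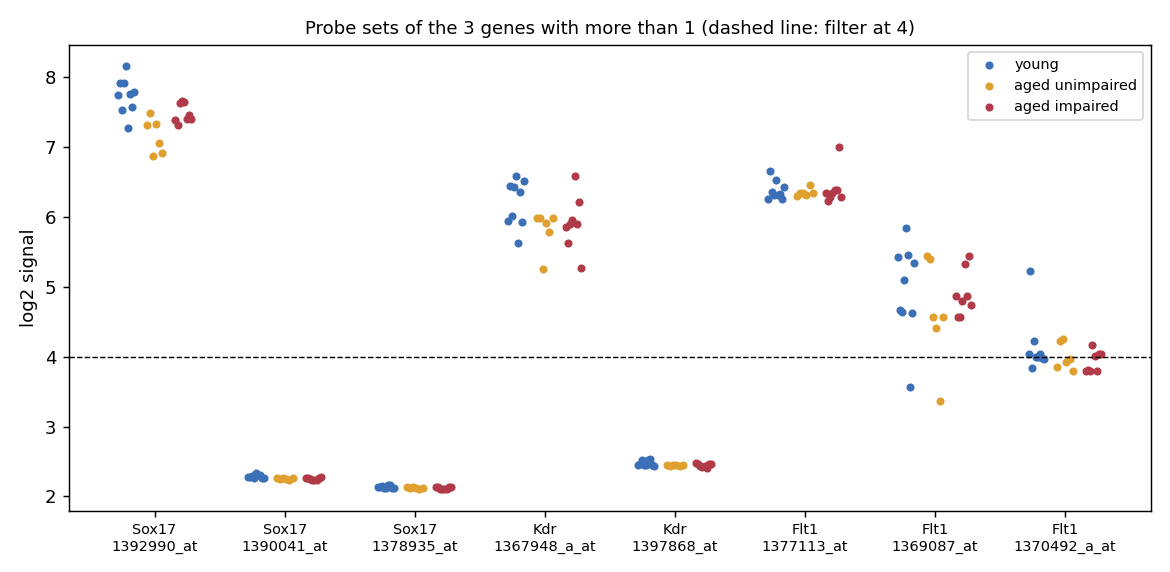
Log2 signal of each array at the 8 probe sets of the 3 genes with more than 1, Sox17, Kdr and Flt1, coloured by group; the dashed line is the limit of 4 for dim probe sets. The 2 other probe sets of Sox17 and the second of Kdr lie between 2.10 and 2.53 in every array.

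Within groups the genes varied together in part. After the group means were subtracted, the 36 pairs of genes had a median Pearson r of 0.38 over 23 arrays, from -0.48 to 0.80. By Pearson r, 13 pairs passed a 2-sided permutation test within groups (100000 permutations, Benjamini-Hochberg over the 36 pairs), all positive. Slco1c1 and Kdr gave the strongest relation, with r = 0.80 and Spearman rho = 0.85 (permutation p = 3e-05 and 1e-05, adjusted p = 0.00108 and 0.00036). It stood at 0.84 in young, 0.67 in unimpaired and 0.85 in impaired rats, and at 0.76 without the 2 arrays farthest from the median. Sox17 varied with Tek at r = 0.75 and rho = 0.75 (permutation p = 0.00064 and 0.00039, adjusted p = 0.00768 and 0.00702), with 0.70 without the 2 farthest arrays, and 0.83, 0.76 and 0.32 within the groups. It varied with Kdr at r = 0.70 and rho = 0.68 (permutation p = 1e-04 and 0.00073, adjusted p = 0.0018 and 0.00876), with 0.60 without the 2 farthest arrays. The other pairs that passed by r joined Slco1c1, Sox17, Sox18, Ramp2, Kdr and Tek, plus Flt1 with Tek at r = 0.47. Some of them did not pass by rho: Sox18 with Kdr, Tek and Ramp2 (adjusted permutation p = 0.0716, 0.0716 and 0.0874) and Sox17 with Ramp2 (0.0874). Flt1 with Kdr passed by rho (adjusted permutation p = 0.0122) but not by r (0.149). Sox17 with Sox18, at r = 0.38, passed by neither (adjusted permutation p = 0.147 and 0.308). The pair of Ramp2 and Kdr, at r = 0.55 and rho = 0.32 (adjusted permutation p = 0.0377 and 0.297), had r = 0.25 without the 2 farthest arrays and so rests on them.

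Pecam1 and Abcg2 stood apart: none of their pairs passed, with r from -0.48 to -0.10 for Pecam1 and from -0.38 to 0.08 for Abcg2. Scaling bore on the count. When arrays were centred on their medians, 6 pairs passed, 5 positive and 1 negative, with a median r of 0.25. Those of Slco1c1 with Kdr (0.73), Sox17 with Tek (0.71) and Sox17 with Kdr (0.61) were among the positive ones, and the negative one was Ramp2 with Pecam1 at -0.67 (adjusted permutation p = 0.038). Single arrays ran low or high over many genes. Young replicate 5 was the lowest young array for 5 of the 9 genes, and aged unimpaired replicate 3 lay below its group mean in 8 of 9, the exception being Abcg2, where it was the highest. Aged impaired replicate 8 lay below its group mean in 8 of 9. Young replicate 5 and aged impaired replicate 8 were also among the 3 arrays that correlated least with the rest, at 0.9905 and 0.9899.

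**Figure D4:**
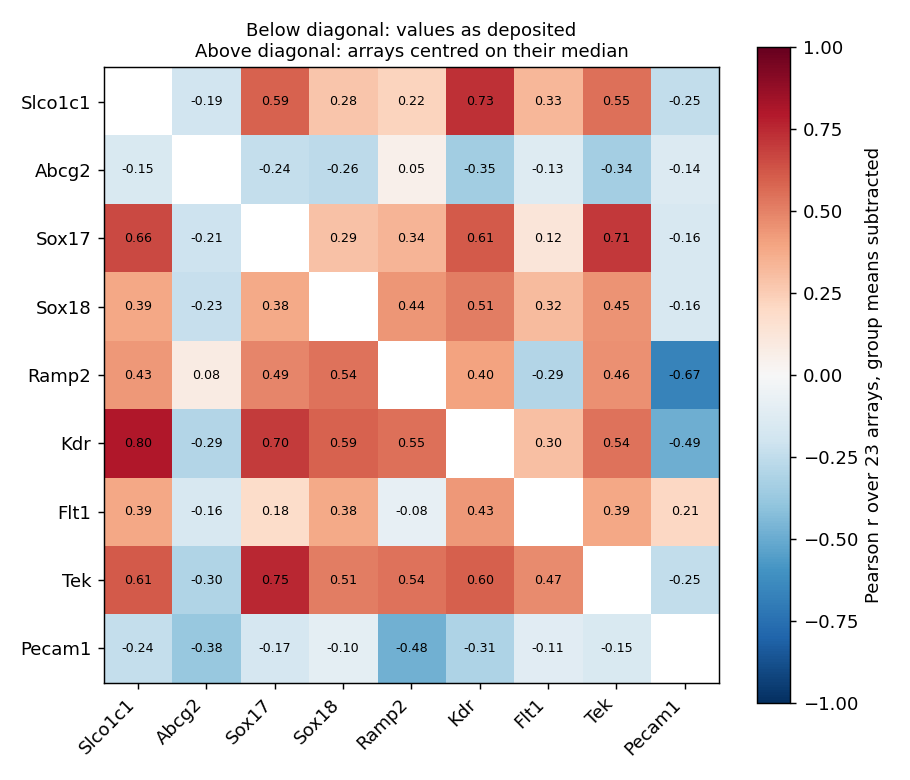
Pearson r between each pair of the 9 genes over 23 arrays after the group means were subtracted, below the diagonal for the deposited values and above it with arrays centred on their medians. The block of positive values holds Slco1c1, Sox17, Sox18, Ramp2, Kdr and Tek, with Slco1c1 and Kdr at 0.80 and 0.73, while the values of Pecam1 and Abcg2 are negative in all but 2 pairs, Abcg2 with Ramp2 (0.08 and 0.05) and Pecam1 with Flt1 when centred (0.21).

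The genes most like each of the 9, by the same r among 9067 other genes, were named as a description. For Slco1c1 they were Klhl5 (0.89), the Norrin gene Ndp (0.86) and Shank3 (0.85). For Kdr they were Slco1a4 (0.88), a carrier of organic anions at the barrier, Ndp (0.87) and the endothelial gene Cyyr1 (0.86). Sox17 was most like Efhd1 (0.88), Rasgrp3 (0.81) and Add3 (0.79), and Tek most like Stxbp3 (0.82), the sphingosine phosphate receptor gene S1pr1 (0.81) and Rasgrp3 (0.79). Sox18 was most like Smurf2 (0.82), the smooth muscle gene Tagln (0.80) and Znrf2 (0.79). Ramp2 was most like Thap7 (0.83), Serp1 (0.82) and Oat (0.80), and Flt1 most like Slc6a6 (0.83), Cyp4f6 (0.83) and Vegfa (0.78), which encodes its ligand. Pecam1 and Abcg2 had the lowest values, up to 0.69 with Ggta1 for Pecam1 and up to 0.79 with Bcas2 for Abcg2. All r values come from the same 23 arrays, and the part of signal level and RNA quality in them was not tested.

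The genes were also set beside the means of marker lists, as a description. Over 23 arrays, the mean of 19 other pan-endothelial markers had an r of 0.82 with Slco1c1, 0.74 with Kdr, 0.67 with Tek, 0.62 with Flt1, 0.60 with both Sox17 and Sox18, 0.27 with Ramp2, 0.02 with Pecam1 and -0.25 with Abcg2. The mean of 10 genes of Wnt signalling in brain vessels had r = 0.93 with Kdr and 0.83 with Slco1c1. That of 10 genes of the Notch and SoxF arterial programme had r = 0.78 with Tek, 0.77 with Kdr, 0.75 with Sox17 and 0.71 with Slco1c1. For 12 tight and adherens junction genes r was 0.86 with both Slco1c1 and Kdr, 0.76 with Sox17 and 0.72 with Tek. The mean of 11 astrocyte markers had r = 0.68 with Slco1c1, 0.65 with Tek, 0.63 with Kdr and 0.60 with Sox17. The same genes thus varied with several lists.

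The wider vessel programme was read from lists of genes, in aged minus young rats. Of 39 other pan-endothelial markers 19 were measured, 12 were below the limit, among them Tie1, Emcn, Erg, Fli1 and Nos3, and 8 had no single-symbol probe set. None of the 19 was called, with a median difference of -0.042 and 11 negative; 4 had an unadjusted p under 0.05 (limma). Of these, the heat shock protein gene Hspb1 and Vwf, which encodes von Willebrand factor, had positive differences of 0.41 ± 0.125 (SE) and 0.26 ± 0.088, and Rasip1 and Adgrl4 negative ones of -0.15 ± 0.069 and -0.28 ± 0.136 (limma, Benjamini-Hochberg adjusted p = 0.0707, 0.104, 0.317 and 0.318). The tight junction gene Cldn5, chosen after its values were seen, differed by -0.06 ± 0.078 (SE; limma, Benjamini-Hochberg adjusted p = 0.814). The 2 aged groups differed in this list, with none of the 19 called in either. In unimpaired against young rats 14 were negative (median -0.087). At an unadjusted p under 0.05 (limma), 6 were lower and 2 higher, where 3.04% of all genes were lower. In impaired against young rats 8 were negative (median 0.011), and at that limit 2 were higher and none lower. How far the 19 markers are confined to endothelium in CA1 was not tested.

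Of 28 other transporters and receptors of the blood-brain barrier 19 were measured, with 1 called higher, 2 lower and a median of 0.033. Of the 19 differences 7 were negative. At an unadjusted p under 0.05 (limma), called genes included, 6 were lower and 1 higher. Of all genes 4.74% were lower at that limit and 15.3% differed in either direction. The zinc transporter Slc39a10 was lower in aged rats by a log2 difference of -0.24 ± 0.047 (SE), at 11.04 ± 0.093 (SD, n = 9) in young, 10.79 ± 0.079 (SD, n = 6) in unimpaired and 10.82 ± 0.14 (SD, n = 8) in impaired rats (limma, Benjamini-Hochberg adjusted p = 0.0049). It was also called lower against young in unimpaired and in impaired rats alone (limma, Benjamini-Hochberg adjusted p = 0.0349 and 0.0181). The cationic amino acid transporter Slc7a1 was lower by -0.31 ± 0.068, at 9.33 ± 0.16, 9.05 ± 0.13 and 9.00 ± 0.20 (limma, Benjamini-Hochberg adjusted p = 0.00925). Slc5a6, which carries biotin and pantothenate, was higher by 0.16 ± 0.04 (limma, Benjamini-Hochberg adjusted p = 0.0261), a call lost without young replicate 2, 5 or 9 and with the RNA quality covariate (adjusted p = 0.0569). The glucose transporter Slc2a1 and the efflux pump Abcb1a, chosen after their values were seen, differed by 0.10 ± 0.061 and 0.04 ± 0.112 (limma, Benjamini-Hochberg adjusted p = 0.451 and 0.925). These carriers are also made by other brain cells.

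The signalling partners of the 9 genes were read from short lists, in which the 3.71% of all genes called gives few calls or none. For Kdr, Flt1 and Tek, none of 9 measured genes of VEGF and angiopoietin signalling was called (median -0.02, 2 at an unadjusted p under 0.05 by limma), and the ligands Vegfa and Vegfb differed by -0.02 ± 0.097 (SE) and 0.21 ± 0.085 (limma, Benjamini-Hochberg adjusted p = 0.951 and 0.217). Angpt1 and Angpt2 were below the limit. For the Sox factors, none of 10 measured genes of the Notch and SoxF arterial programme was called (median -0.031, 0 at an unadjusted p under 0.05 by limma). For Ramp2, 1 of 8 genes of adrenomedullin signalling and its relatives was measured. This was Ramp1, a relative of Ramp2, at 0.09 ± 0.088 (limma, Benjamini-Hochberg adjusted p = 0.695). Adm and Calcrl were below the limit, so adrenomedullin signalling itself was not read by this list.

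For Slco1c1, none of 9 measured genes of thyroid hormone transport and action was called (median -0.044, 2 lower at an unadjusted p under 0.05 by limma). The thyroid hormone binding protein Crym differed by -0.13 ± 0.056 (SE) and the amino acid and hormone carrier Slc7a5 by -0.57 ± 0.261 (limma, Benjamini-Hochberg adjusted p = 0.249 and 0.29). Of 10 measured genes of Wnt signalling in brain vessels, the Norrin co-receptor component Tspan12 was higher by 0.21 ± 0.056 (limma, Benjamini-Hochberg adjusted p = 0.0339), a call lost in 8 leave-outs, with a median of 0.053 over the list. Those were aged impaired replicates 2, 5 and 6, aged unimpaired replicate 4 and young replicates 2, 5, 6 and 9, and adjusted p reached 0.0667 (limma, Benjamini-Hochberg). It was 0.0851 with the RNA quality covariate. None of 12 tight and adherens junction genes was called (median 0.002, 0 at an unadjusted p under 0.05 by limma). Of 3 measured genes of activated endothelium, the adhesion molecule Vcam1 differed by -0.09 ± 0.066 and the chemokine receptor Ackr1 by -0.08 ± 0.094 (limma, Benjamini-Hochberg adjusted p = 0.603 and 0.768), and Cd74, which microglia also express, was called higher.

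**Figure D5:**
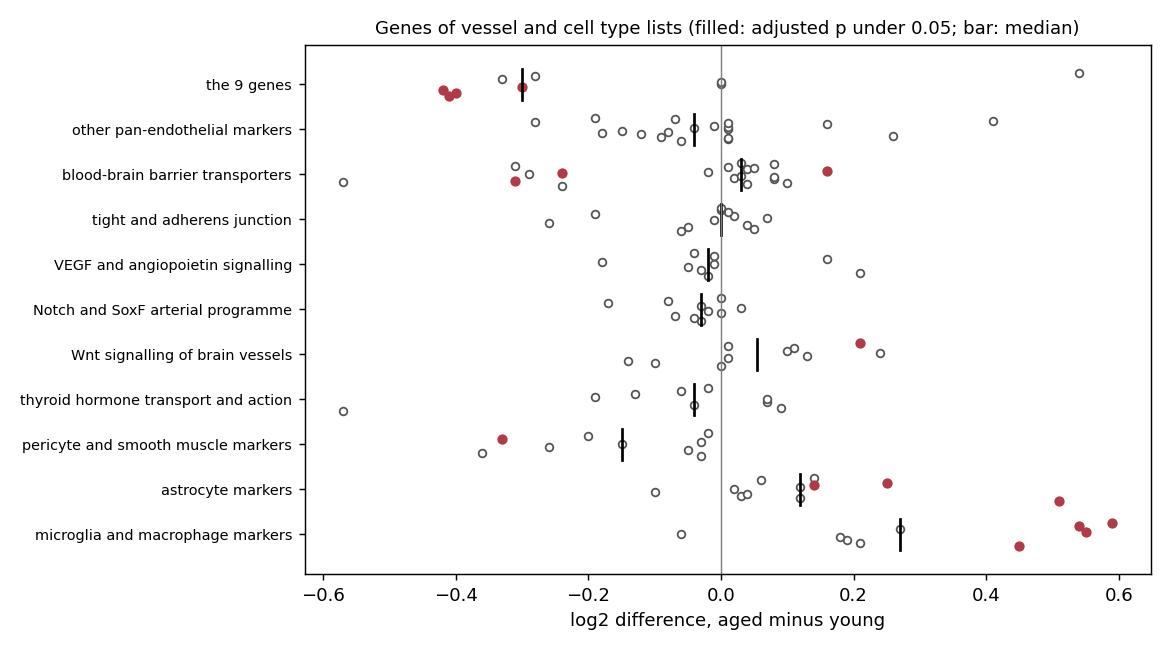
Log2 difference, aged minus young, of each measured gene in the 9 genes and in 10 lists of vessel genes and of cell types; filled points have an adjusted p under 0.05 and the bar is the median of the list. The 9 genes have a median of -0.303, the other pan-endothelial markers one of -0.042 and the tight and adherens junction genes one of 0.002.

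Markers of neighbouring cell types also differed between aged and young rats. All 9 measured pericyte and smooth muscle markers had negative differences (median -0.147), and the smooth muscle myosin Myh11 was called lower, by a log2 difference of -0.33 ± 0.089 (SE; limma, Benjamini-Hochberg adjusted p = 0.0364), a call lost in 10 of 23 leave-outs. Those were aged impaired replicates 2 to 6 and young replicates 1, 3, 5, 6 and 8, and adjusted p reached 0.0749 (limma, Benjamini-Hochberg). With no filter on dim probe sets it was 0.0624. The mean signal of that list ran from 6.48 to 6.81 in young, 6.26 to 6.59 in unimpaired and 6.22 to 6.86 in impaired rats. All 4 measured markers of meninges and fibroblasts also had negative differences (median -0.648), 3 of them at an unadjusted p under 0.05 (limma). Of these, Igf2 and Dcn were called lower, by -0.84 ± 0.156 and -0.71 ± 0.153 (limma, Benjamini-Hochberg adjusted p = 0.00249 and 0.00857). With the mean of its passing probe sets Igf2 differed by -0.457. The list mean ran from 7.05 to 8.6 in young, 6.80 to 7.34 in unimpaired and 7.16 to 7.30 in impaired rats. Over arrays, with group means subtracted, the mean of that list had r = 0.62 with Sox17, 0.44 with Ramp2, and 0.30 with Slco1c1 and with Sox18. For the genes not called it was 0.51 with Kdr, 0.40 with Tek, 0.15 with Flt1, -0.22 with Pecam1 and -0.26 with Abcg2.

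Some glial markers were higher in aged rats. Of 11 astrocyte markers 3 were higher (Gfap, S100b and Agt; median 0.118) and of 9 microglia and macrophage markers 4 were higher (Aif1, C1qa, Tyrobp and Fcer1g; median 0.27). The microglia mean ran from 7.40 to 7.95 in young, 7.84 to 8.13 in unimpaired and 7.86 to 8.27 in impaired rats, and the astrocyte mean from 11.35 to 11.62, 11.53 to 11.65 and 11.49 to 11.74. Of the choroid plexus markers, 7 of 10 were below the limit, as were 7 of 10 blood cell markers and 6 of 10 meningeal markers. The choroid plexus marker measured, Ttr, ran from 5.69 to 9.5 in young, 4.74 to 7.79 in unimpaired and 6.3 to 9.5 in impaired rats. The blood cell marker measured, Hbb, ran from 11.16 to 11.7, 10.24 to 11.79 and 11.05 to 12.17. The mean of the 19 other pan-endothelial markers ran from 7.95 to 8.38 in young, 7.99 to 8.16 in unimpaired and 8.09 to 8.44 in impaired rats, so the groups overlapped. The part of any of these cell types in the differences of the 9 genes was not tested.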

How the data were processed

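The authors deposited signals on the log2 scale. Per the submitters' processing notes they come from GCRMA, with its version and any genome build not given in the sources used here. GCRMA corrects background, normalizes and summarizes probes, so low signals rest on its background model. Of 24 sample columns 1 was blank. Values were used without further scaling. Each gene was its single-symbol probe set of highest mean among those with log2 signal over 4 in at least 6 arrays (9076 genes). The 3 group means over 23 arrays were fitted with limma (3.58.1, R 4.3.3). In each of 4 comparisons p was adjusted by Benjamini-Hochberg over all genes, with calls under 0.05. The aged mean weights the aged groups by their arrays. The script was tested on simulated data. Promoter motifs and figures used Python 3.11.15 and matplotlib 3.10.9. Alternatives changed the filter, probe sets, scaling, weights, moderation, covariates, groups, threshold and arrays. The genes, the lists and the rule for naming genes (the 9 genes, called list genes and up to 3 of smallest p in a list, and the 3 genes most like each) were chosen with earlier results of these data known. No batch or date was given.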

Additional observations from a re-analysis of the deposited data

Results flagged for a closer look

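In 33 groups of arrays at the 11 probe sets, 5 single arrays stood apart from the rest of their group, where chance gives about 1 in 20 groups. Each was the highest or lowest of its group, and its gap to the nearest array took a larger share of the group's range than Dixon's 95% critical value. For Kdr, aged unimpaired replicate 3 lay at 5.25 with the next array at 5.78, a gap of 0.7221 of the range. The same array was the highest for Abcg2. For Abcg2, aged impaired replicate 3 lay at 5.25 with the next at 6.46, a share of 0.5262 that only just exceeds the critical value for 8 arrays. At the brightest probe set of Flt1, 1377113_at, aged impaired replicate 7 lay at 7 with the next at 6.39 (a share of 0.7958), and aged unimpaired replicate 5 at 6.46 with the next at 6.34 (0.7337). At the dim Flt1 probe set 1370492_a_at, young replicate 1 lay at 5.23 with the next at 4.22 (0.7274). None of these probe sets gave a called difference.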

How the results depend on the processing

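The calls of Slco1c1 and Sox17 in aged against young rats kept their direction and side of the threshold under every alternative run. The count of the 9 genes called in that comparison (4) was 2 with no filter on dim probe sets and 2 with the replicate block, and from 2 to 4 when 1 array was left out. In impaired against young rats it (1) was 2 with the RNA quality covariate and stayed 1 in every leave-out. In unimpaired against young rats it (1) was 4 with centred arrays, 3 with quantile normalization, 4 with array weights, 3 with the RNA quality covariate, 0 with the replicate block, 2 with the compared groups only, 3 at an adjusted p under 0.1, 4 without the 3 arrays of lowest correlation, and 1 to 3 in leave-outs. In impaired against unimpaired rats it was 0 in every setting run, leave-outs included (0 to 0). The count of pairs that passed by Pearson r (13) was 6 with centred arrays.

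Over all genes, the aged against young count (337) was 159 with the block, 524 at an adjusted p under 0.1 and 224 to 407 in leave-outs, lowest without young replicate 2. Impaired against young (345) gave 165 with the block, 531 at 0.1 and 228 to 439, lowest without aged impaired replicate 6. Unimpaired against young (69) gave 149 with array weights, 31 with the block, 135 at 0.1 and 35 to 86, lowest without aged unimpaired replicate 4. Impaired against unimpaired (0) gave 1 with the block, 1 with the compared groups only and 0 to 0 in leave-outs. The cause of these shifts was not tested.

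Signs near 0 turned. Flt1 in aged against young rats was -0.12 with the mean of its probe sets, -0.019 centred, -0.009 with quantile normalization, -0.027 with weights, -0.041 with the RNA quality covariate, -0.018 with the block and -0.049 without the 3 arrays, and -0.044 to 0.038 in leave-outs. In impaired against young rats it was -0.083 with the mean of probe sets, -0.013 with weights and -0.06 without the 3 arrays (-0.057 to 0.062 in leave-outs). In impaired against unimpaired rats it was -0.023 without the 3 arrays (-0.029 to 0.082), and in unimpaired against young rats -0.051 to 0.006. Pecam1 in impaired against young rats was -0.006 centred and -0.001 with quantile normalization (-0.001 to 0.02), and in aged against young rats -0.013 to 0.002. Without aged unimpaired replicate 3, Abcg2 in unimpaired against young rats and Kdr in impaired against unimpaired rats turned (ranges -0.205 to 0.527 and -0.014 to 0.191).

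The labels share replicate numbers across groups, but these did not pair the arrays: the median correlation of same-numbered arrays was -0.0713 for young with unimpaired, -0.0573 for young with impaired and 0.00381 for unimpaired with impaired. An array correlated best with its own number in 0 of 6, 0 of 8 and 2 of 6 cases. With the block, adjusted p was 0.0468 for Slco1c1, 0.0475 for Sox17, 0.124 for Sox18 and 0.14 for Ramp2 in aged against young rats, and 0.0518 for Sox17 in unimpaired against young rats (limma, Benjamini-Hochberg). The lists' called genes were put through the same alternatives, chosen after the data were seen. Beside the losses given with each gene, the block ended the calls of Slc5a6 (0.155), Tspan12 (0.201), S100b (0.0713) and Dcn (0.0552).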
